A study of Mus musculus with 6 samples.

Results

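Mitochondrial ribosomal protein genes were examined in the lenses of 2-month-old mice. They were taken as every row of the deposited expression table whose symbol is Mrpl or Mrps, a number and at most 1 letter from a to d. This gave 77 genes of 41449 rows, 48 named for the large subunit (Mrpl) and 29 for the small subunit (Mrps), on 17 chromosomes. RNA was measured by sequencing in 6 libraries made from 2 lenses each. The 3 wild-type libraries (WT) came from C57BL/6 mice. The 3 libraries of fibronectin conditional knockout mice (FNcKO) came from a mixed background of C57BL/6, 129 and FVB/N. The sources used here give neither the alleles nor the driver of the deletion. The labels call the libraries biological replicates, and p-values measure the spread between them. Genotype and strain background divide the libraries in the same way and cannot be told apart in any difference below.

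Mitochondria have ribosomes of their own, which translate the few proteins encoded by mitochondrial DNA, all of them parts of the respiratory chain and ATP synthase. The RNA of these ribosomes is encoded in the mitochondrion, while every one of their proteins is encoded in the nucleus, made in the cytosol and imported. In the lens, mitochondria are kept by the epithelium and the young fiber cells and are removed as fibers mature. Some of the proteins have a counterpart in bacterial ribosomes, and others are known from mitochondrial ribosomes alone. Of the 77 genes, 29 encode large subunit proteins with a bacterial counterpart and 21 large subunit proteins without one. The small subunit accounts for 16 and 10. Symbols do not always match the place in the particle: the products of Mrps18a and Mrps30 sit in the large subunit, and that of Mrps36 is now assigned to an enzyme complex of the citric acid cycle.

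The promoters of these genes are shown because they hold sequence motifs the selection did not use. RefSeq promoter sequences (GRCm38.p6, 250 bases before to 50 after the start site) matched 68 of the 77 genes by symbol. Mrpl15 had no match, so its promoter was not searched. Both strands were searched for 4 motifs, each on its own, so that 1 promoter could hold several. The motif of NRF1, a transcription factor known for driving nuclear genes of mitochondrial proteins, was searched as GCGCA, 1 base of any kind and GCGC. It occurred in 13 of the 68 (19.1%), against 13.5% of 6667 genes above the level filter and 5.19% of all 27025 genes with a promoter sequence. The ETS motif CCGGAAG, which GABP binds, occurred in 25 of 68 (36.8%), against 22.1% and 9.93%. The YY1 motif, AAGATGG followed directly by CGGC, occurred in 5 of 68 (7.35%), against 2.42% and 0.755%. The TATA motif TATAAA occurred in 5 of 68 (7.35%), against 8.49% and 15.7%. At least 1 of the first 3 motifs lay in 37 of 68 promoters (54.4%), against 34.1% of genes above the filter. The shares describe letters in these windows and were not tested.

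The stretches below are from members that recur in the values that follow. They are written 5′ to 3′ on the strand of the gene with the motif in capitals, which reads as the reverse complement where the motif lies on the other strand. The first 3 hold the NRF1 motif, the next 4 the ETS motif and the last 2 the YY1 motif.
Mrps26: ccgggccggGCGCAGGCGCaggcgctgg
Mrpl45: ggtttcattGCGCACGCGCgaacccact
Mrps9: gggaggtctGCGCCTGCGCagtctccag
Mrps18a: acccctgctCCGGAAGcggaagtgc
Mrpl33: gcgcatgccCCGGAAGtagtcgttg
Mrpl51: ggggctaaaCCGGAAGtatttgact
Mrpl52: agatgtcggCTTCCGGttttcccgg
Mrps18a: gtgcgttccAAGATGGCGGCcctcagggc
Mrpl37: gcacgggcaAAGATGGCGGCgtccaggta
In the same order they lie at chr2:130563746-130563773, chr11:97315669-97315696, chr1:42851219-42851246, chr17:46110969-46110993, chr5:31613939-31613963, chr6:125192101-125192125, chr14:54426853-54426877, chr17:46111006-46111034 and chr4:107066821-107066849. All are on the plus strand except Mrpl37, which is on the minus strand.

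The 150 bases before the start site are given whole for Mrps24 and Mrps18a, which came nearest to the test's threshold without passing it, in opposite directions. The Mrps24 stretch is chr11:5707702-5707851 on the minus strand, and the Mrps18a stretch is chr17:46110854-46111003 on the plus strand.
Mrps24: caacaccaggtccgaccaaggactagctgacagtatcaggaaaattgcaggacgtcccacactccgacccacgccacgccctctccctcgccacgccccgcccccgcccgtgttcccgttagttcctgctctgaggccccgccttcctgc
Mrps18a: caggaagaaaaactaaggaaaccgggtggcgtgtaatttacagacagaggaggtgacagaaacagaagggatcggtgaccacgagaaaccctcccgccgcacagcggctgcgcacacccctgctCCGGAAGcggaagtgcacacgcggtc
The capitals in the Mrps18a stretch mark the ETS motif, 26 bases before the start, and the YY1 motif shown above begins at base 12 after it. The Mrps24 stretch holds none of the NRF1, ETS and YY1 letters searched.

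The genes often share a start region with a neighbour. In GENCODE M21 (GRCm38), 33 of the 77 (42.9%) have a protein-coding gene on the opposite strand whose start lies within 1000 bases, against 17.7% of the 8066 genes above the filter that matched a protein-coding gene. Mrpl46 and Mrps11, a pair of members on chromosome 7, face each other with gene starts 412 bases apart. Mrps12 faces Sars2 at 172 bases, the mitochondrial seryl-tRNA synthetase. Mrpl49 faces Fau at 59 bases, which encodes a protein of the cytosolic ribosome, and Mrps27 faces Ptcd2 at 81 bases.

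Levels are in FPKM, a measure of fragment number corrected for how long a transcript is and how deeply its library was read, so they can be set beside each other between genes. The 3 values of a group are always given in the order of the replicate numbers. Mean levels over the 6 libraries spread 187-fold across the 77 genes. Mrpl52 was the most abundant, with 145.9, 155.7 and 164.5 FPKM in WT and 122.9, 149.0 and 121.2 FPKM in FNcKO (log2 change -0.25, limma adjusted p = 0.282). Mrpl52 alone made up between 14.3% and 18.3% of the summed FPKM of the members in a library. It encodes a large subunit protein found in mitochondria only. The other 5 members above 30 FPKM were Mrpl30, Mrps21, Mrps6, Mrpl42 and Mrpl54. Mrpl30 stood at 63.0, 61.0 and 69.8 FPKM in WT and 66.7, 72.9 and 66.5 FPKM in FNcKO. Mrps21 stood at 51.1, 47.5 and 61.1 FPKM in WT and 55.3, 44.6 and 47.6 FPKM in FNcKO. For both, the groups overlapped.

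**Figure D1:**
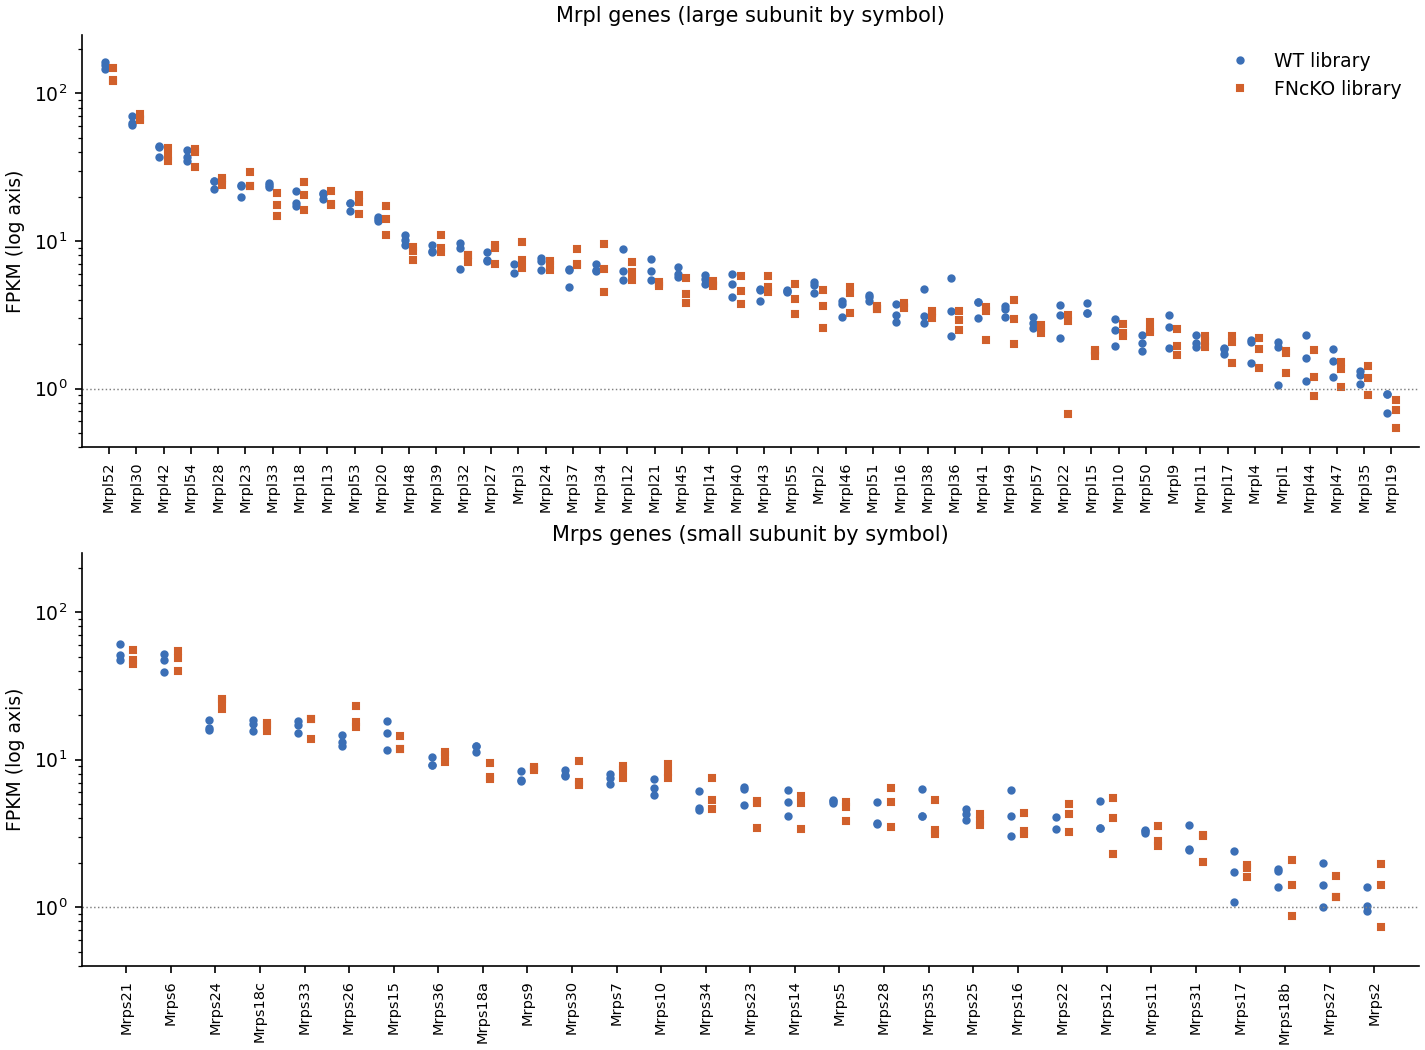
Level of each of the 77 genes in every library (FPKM, log axis), ordered by the mean of the 6 libraries. WT libraries are circles, FNcKO libraries are squares, and the dotted line is the filter of 1 FPKM. Mrpl52 lies highest and Mrpl19 lies below the filter, and in most genes circles and squares fall on each other.

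Mrps6 stood at 39.5, 47.7 and 51.8 FPKM in WT and 54.9, 48.6 and 40.0 FPKM in FNcKO. Its row is uncertain, because 19.9% of its exonic bases are shared on the same strand with Slc5a3, a myo-inositol transporter gene, and another annotated gene. Mrpl42 stood at 44.0, 37.2 and 43.4 FPKM in WT and 37.9, 43.0 and 35.0 FPKM in FNcKO, also with overlap. The 5 most abundant members together took 39.3% to 41.6% of the summed FPKM.

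Another 14 members lay between 10 and 30 FPKM, 38 between 3 and 10, and 18 between 1 and 3. The least abundant tested genes were Mrpl35 (a WT mean of 1.21 ± 0.125 FPKM and an FNcKO mean of 1.17 ± 0.264 FPKM, SD, n = 3 each), Mrps2, Mrps27, Mrpl47 and Mrpl44. Mrps2 stood at 0.949, 1.02 and 1.38 FPKM in WT and 1.41, 1.97 and 0.735 FPKM in FNcKO, with wide overlap. Mrpl19 was the 1 member under the filter, with 0.922, 0.678 and 0.920 FPKM in WT and 0.834, 0.537 and 0.712 FPKM in FNcKO, and was not tested. The order of levels was nearly the same in both genotypes (Spearman rho = 0.981 between the WT and FNcKO means of 77 genes, a description across genes that share their libraries).

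Within WT, the median coefficient of variation was 20.8% for the 18 tested members under 3 FPKM and 8.47% for the 20 of at least 10 FPKM. Over all tested members it was 10.2% in WT and 15.3% in FNcKO, against 9.20% and 11.9% for all genes tested. Level and annotated length ran weakly opposite (Spearman rho = -0.27 with the longest GENCODE transcript, 77 genes). The 17 members with a longest transcript under 1000 bases had a median level of 8.06 FPKM, and the 22 with one over 3000 bases had 4.24 FPKM.

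Comparing FNcKO with WT, the family as a whole stayed close to the other genes. Of the 76 members tested, 1 fell and none rose at a limma adjusted p of 0.05, with 6 lower and 5 higher at an unadjusted p under 0.05. The 1 that fell was Mrpl15, which encodes a large subunit protein with a bacterial counterpart. The background was 192 of 10149 genes tested (1.89%) at the adjusted threshold, of which 1.03% of genes lower and 0.857% higher in FNcKO. At an unadjusted p under 0.05 it was 18.1% of genes, against 11 of 76 members (14.5%). The groups did not overlap in 7 members that were lower and 6 that were higher, 13 of 76 (17.1%), where the background was 25.6% (16.3% lower and 9.31% higher). All 3 shares were under those of all genes, but the first (1.32% against 1.89%) rests on 1 gene. The members were also measured with more spread, with a median SE of the log2 change of 0.13 against 0.11 for all genes tested. The part of that spread in the lower shares was not tested.

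The median log2 change of the 76 members was -0.05, that of all genes tested -0.04. Log2 changes below 0 were found in 46 of 76 members (60.5%), against 60.3% of all genes. The log2 change was smaller than 0.2 either way in 52 members (68.4%), against 69.3% of all genes. The median SE of a member's log2 change was 0.13, so changes of this size were not detectable in most single members. The signs depend on how libraries are scaled to each other. With median-ratio scaling 43 of 76 members had log2 changes below 0, and with quantile normalization 39 of 76. The members' median was -0.01 in both of these. With all libraries scaled to 1 common FPKM total, 15 of 76 members had log2 changes below 0 and the median of all genes moved by 0.20 to 0.15. With the total taken without crystallins, 5 of 76 did and the median of all genes moved by 0.34 to 0.29. The members' medians moved with it, to 0.14 and 0.30. The FPKM totals ran from 1631866 to 1725738 in WT and from 1251386 to 1519627 in FNcKO. Crystallins made up 22.6% to 24.5% of them in WT and 28.9% to 37.1% in FNcKO. The highest row among the genes tested, LOC108167755, is no crystallin and averaged 306700 FPKM over the libraries (log2 change -0.44). Its part in the totals was not tested. Among the members whose lower log2 changes are printed, Mrpl51, Mrpl52, Mrps18b and Mrps18c had log2 changes above 0 under both of these scalings, and Mrpl48, Mrpl45 and Mrpl21 under the second. Mrps18c was also above 0 with median-ratio scaling and quantile normalization.

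**Figure D2:**
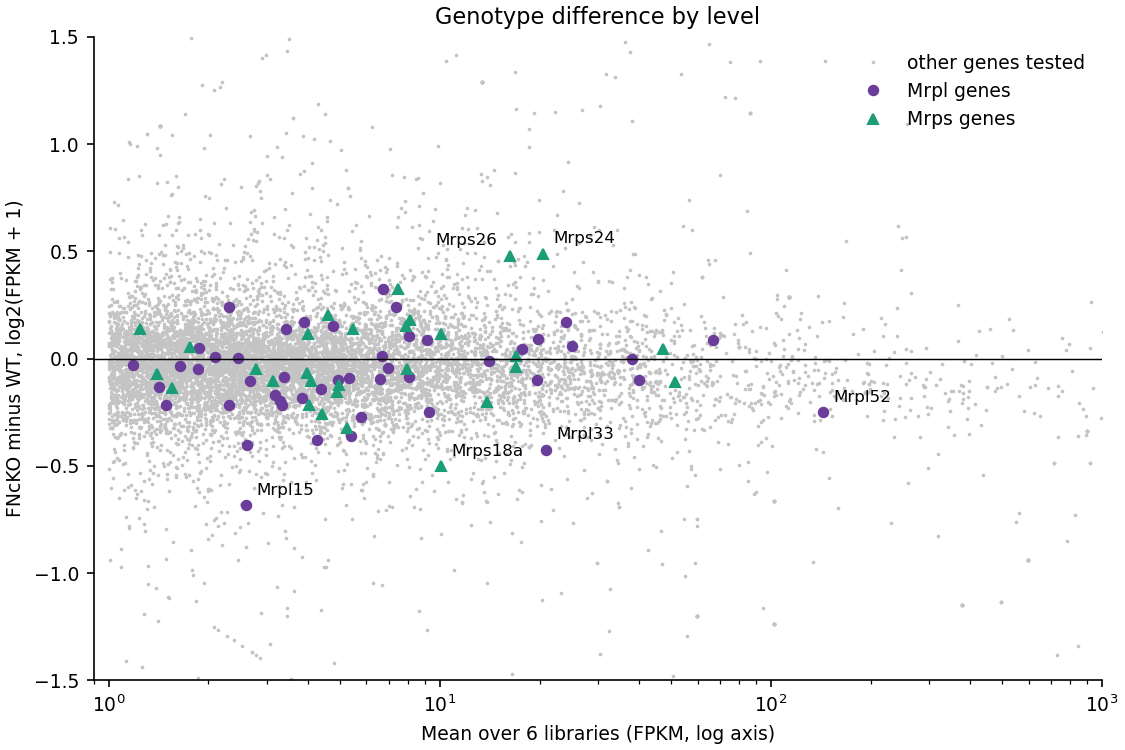
FNcKO minus WT difference of each tested gene on the log2(FPKM + 1) scale against its mean level (FPKM, log axis). Grey points are other genes, circles are Mrpl genes and triangles are Mrps genes; genes beyond 1.5 on the vertical axis or above 1000 FPKM are not drawn. Mrpl15 is the lowest member at -0.68, and Mrps24 the highest at 0.49.

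Mrpl15 (chromosome 1, 4773198 to 4785749, GRCm38) was set as a gene of interest with earlier results of these data known. Its p is therefore no independent support. Its WT libraries gave 3.24, 3.27 and 3.79 FPKM, and its FNcKO libraries gave 1.79, 1.66 and 1.83 FPKM. Every FNcKO library lay below every WT library, and the lowest WT value was 1.77 times the highest FNcKO value. The means were 3.43 ± 0.307 FPKM and 1.76 ± 0.0873 FPKM (SD, n = 3 each), 1.95-fold lower in FNcKO. The log2 change was -0.68 (SE 0.08, limma adjusted p = 0.0204), the largest fall among the members and rank 52 by p among all genes tested. In bulk lens RNA, fewer cells that make a transcript and less of it per cell cannot be told apart.

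The call for Mrpl15 was lost with any 1 library left out, at limma adjusted p from 0.0509 without FNcKO replicate 1 to 0.0851 without WT replicate 1, while the log2 change stayed between -0.71 and -0.63. It was also lost with all libraries scaled to 1 common FPKM total (log2 change -0.51, limma adjusted p = 0.119) and with that total taken without crystallins (-0.38, adjusted p = 0.215). Mrpl15 shares no exonic base with another gene in GENCODE M21. The 5 tested genes within 500000 bases of Mrpl15 had limma adjusted p from 0.520 to 0.947. They include Lypla1 next to it, an acyl-protein thioesterase gene with 2.98, 3.34 and 3.17 FPKM in WT and 3.10, 2.99 and 3.84 FPKM in FNcKO, where the groups overlap. Fn1, the targeted gene, is on the same chromosome 66.8 Mb away and was itself low in both groups, at 0.135, 0.188 and 0.253 FPKM in WT and 0.128, 0.0482 and 0.0942 FPKM in FNcKO.

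Among the other large subunit proteins with a bacterial counterpart, Mrpl33 came nearest to the threshold. It stood at 23.1, 24.8 and 24.1 FPKM in WT and at 21.1, 14.7 and 17.6 FPKM in FNcKO, where replicate 1 lay close to WT. The log2 change was -0.42 (SE 0.13, limma adjusted p = 0.18). With 1 library left out, the limma adjusted p of Mrpl33 lay between 0.0816 without FNcKO replicate 1 and 0.38 without WT replicate 3. Mrpl21 stood at 6.22, 5.48 and 7.59 FPKM in WT and 5.30, 5.12 and 4.93 FPKM in FNcKO (log2 change -0.27, limma adjusted p = 0.276). The Mrpl21 groups did not overlap, but their nearest libraries lay close together.

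Mrpl22 had a log2 change of -0.40 that rested on FNcKO replicate 1. Its values were 3.69, 2.205 and 3.14 FPKM in WT and 0.675, 3.16 and 2.88 FPKM in FNcKO (limma adjusted p = 0.629). Mrpl2 stood at 5.25, 4.43 and 5.02 FPKM in WT and 2.56, 3.64 and 4.63 FPKM in FNcKO, with overlap (limma adjusted p = 0.321). Mrpl3, without a value in WT replicate 2, stood at 6.07 and 6.96 FPKM in WT and 6.60, 9.88 and 7.41 FPKM in FNcKO (log2 change 0.24, limma adjusted p = 0.546). Of the 28 tested genes of this class, 1 passed the test, 17 had log2 changes below 0 (60.7%, against 60.3% of all genes) and the median was -0.04.

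The 21 large subunit genes whose proteins occur in mitochondria alone had a median log2 change of -0.10, with 15 below 0 and none past the limma test (1 higher and 4 lower at an unadjusted p under 0.05). That is 71.4% below 0 and 23.8% at the unadjusted threshold, against 60.3% and 18.1% of all genes, a difference that was not tested. Mrpl51 was even within groups, at 3.93, 4.19 and 4.29 FPKM in WT and 3.46, 3.60 and 3.48 FPKM in FNcKO. Its log2 change of -0.18 had an SE of 0.06 (limma adjusted p = 0.189). Mrpl45, known to hold the ribosome at the inner membrane, stood at 5.73, 6.70 and 6.01 FPKM in WT and 4.37, 5.64 and 3.83 FPKM in FNcKO (log2 change -0.36, limma adjusted p = 0.234). FNcKO replicate 2 of Mrpl45 lay just under the lowest WT library.

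Mrpl48 stood at 9.43, 10.1 and 10.9 FPKM in WT and 9.17, 7.49 and 8.57 FPKM in FNcKO (log2 change -0.25, limma adjusted p = 0.245). The values of Mrpl50 and Mrpl37 went the other way. Mrpl50 stood at 2.30, 2.03 and 1.79 FPKM in WT and 2.50, 2.82 and 2.44 FPKM in FNcKO (log2 change 0.24, limma adjusted p = 0.242). Mrpl37 stood at 4.85, 6.43 and 6.35 FPKM in WT and 6.99, 8.86 and 6.93 FPKM in FNcKO (log2 change 0.32, limma adjusted p = 0.282). In all 3 genes the groups did not overlap.

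**Figure D3:**
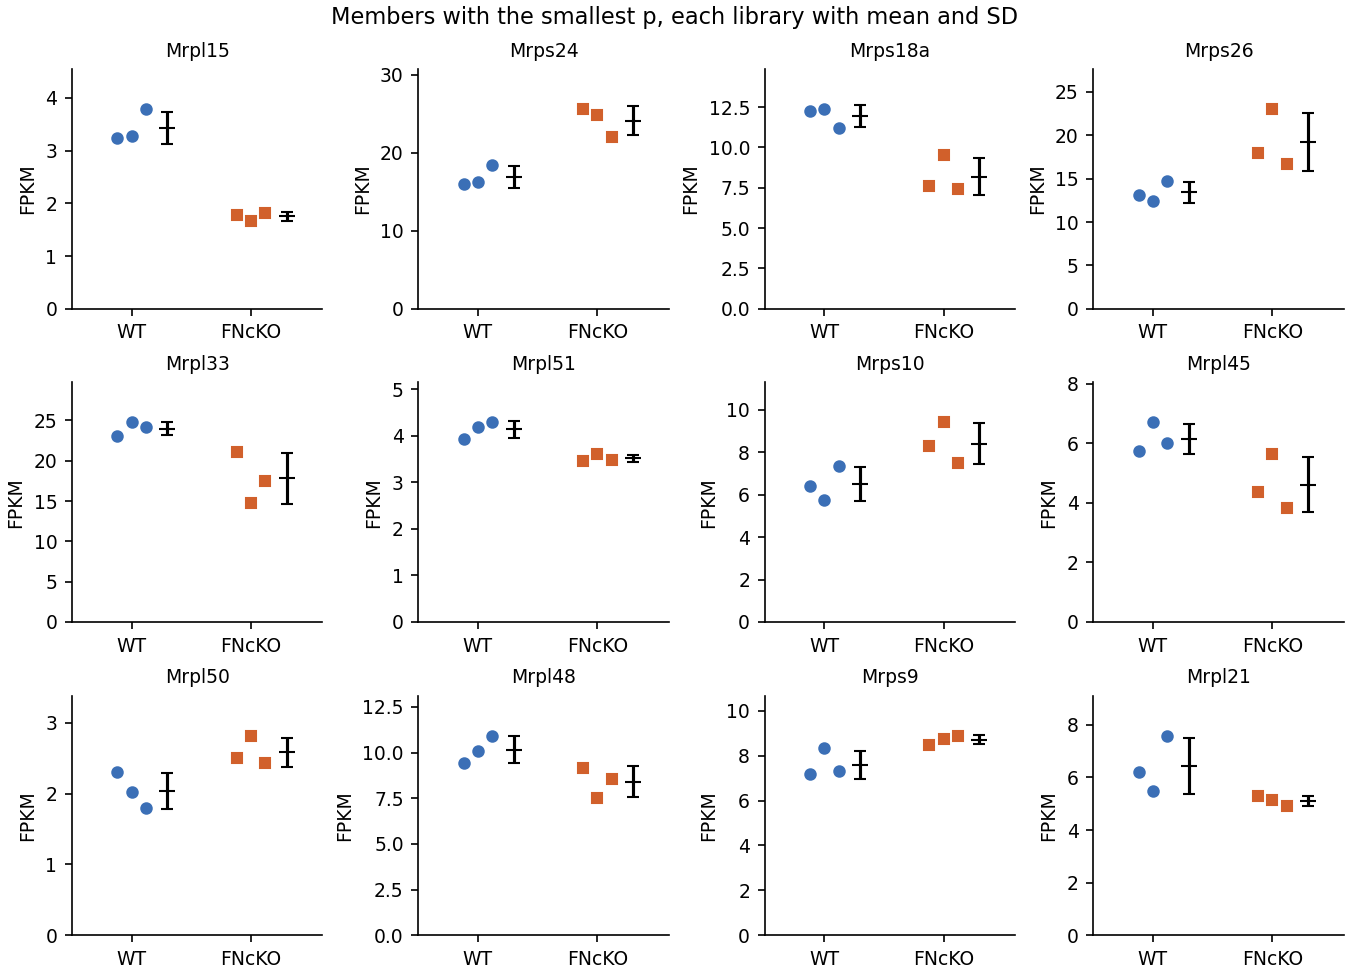
FPKM in each library of the 12 members with the smallest p, in order, with WT as circles, FNcKO as squares, and bars for the mean and SD of each group (n = 3 each). In all 12 the groups do not overlap; 7 are lower and 5 are higher in FNcKO, and Mrpl15 is the 1 that passed the adjusted threshold.

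Of the 16 small subunit genes with a bacterial counterpart, none passed the limma test. At an unadjusted p under 0.05, 3 were higher and 0 lower, which is 18.8%. The background is 18.1% of all genes, 6.74% higher and 11.4% lower, and a difference from it was not tested. The median log2 change was 0.00, with 8 above 0 and 8 below. Mrps24 was the closest, at 16.0, 16.3 and 18.5 FPKM in WT and 25.6, 24.8 and 22.0 FPKM in FNcKO. Every FNcKO library lay above every WT library, with means of 16.9 ± 1.37 and 24.2 ± 1.91 FPKM (SD, n = 3 each; log2 change 0.49, SE 0.09, limma adjusted p = 0.0636). Mrps24 passed with median-ratio scaling (adjusted p = 0.0261) and after quantile normalization (adjusted p = 0.0269). With 1 library left out, its limma adjusted p lay between 0.0938 and 0.20. Its row is uncertain, because 15.4% of its exonic bases are shared on the same strand with Urgcp.

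Mrps10 stood at 6.42, 5.75 and 7.36 FPKM in WT and 8.29, 9.41 and 7.49 FPKM in FNcKO (log2 change 0.32, limma adjusted p = 0.219). Mrps9 stood at 7.16, 8.32 and 7.30 FPKM in WT and 8.49, 8.74 and 8.90 FPKM in FNcKO (log2 change 0.18, limma adjusted p = 0.273). For both, the FNcKO libraries lay above the WT libraries, by a narrow margin at the nearest values.

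The 10 small subunit genes particular to mitochondria had a median log2 change of -0.06, with none past the limma test. The background at an unadjusted p under 0.05 is 18.1% of all genes, and a difference from it was not tested. Of the 10 genes, 1 was at that threshold. That gene was Mrps26, at 13.1, 12.4 and 14.7 FPKM in WT and 17.99, 23 and 16.7 FPKM in FNcKO (log2 change 0.48, SE 0.13, limma adjusted p = 0.15). All FNcKO libraries of Mrps26 lay above WT, and FNcKO replicate 2 was the highest.

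Mrps18a, Mrps18b and Mrps18c are related genes of 1 family whose products take different places: that of Mrps18a in the large subunit, those of the other two in the small subunit. Mrps18a stood at 12.3, 12.4 and 11.2 FPKM in WT and 7.60, 9.502 and 7.44 FPKM in FNcKO, with every FNcKO library below WT (log2 change -0.50, SE 0.10, limma adjusted p = 0.0805). Mrps18c stood at 18.7, 15.6 and 17.5 FPKM in WT and 17.1, 17.7 and 15.6 FPKM in FNcKO, with full overlap (log2 change -0.04, limma adjusted p = 0.865). Mrps18b was the scarcest, at 1.83, 1.36 and 1.77 FPKM in WT and 2.095, 0.87 and 1.41 FPKM in FNcKO (log2 change -0.14, limma adjusted p = 0.765). The Mrps18c row is uncertain, because 23.2% of its exonic bases are shared on the same strand with Gm43511. Mrps18b shares 30.5% on the opposite strand with Gm16279. In both genotypes the order was Mrps18c, Mrps18a, Mrps18b. Differences between these genes in their genotype change were not tested.

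Taken by symbol, the 47 tested Mrpl genes had a median log2 change of -0.08 and the 29 Mrps genes one of -0.05, a difference of -0.04. Between libraries the same difference of medians varied with an SD of 0.04. At an unadjusted p under 0.05, 1 Mrpl gene was higher and 5 lower, and 4 Mrps genes were higher and 1 lower. With Mrps18a and Mrps30 moved to the large subunit and Mrps36 left out, 7 of 49 large subunit genes (1 higher and 6 lower) and 4 of 26 small subunit genes (all higher) were at that threshold. The background is 6.74% of all genes higher and 11.4% lower. The difference of the medians was 0.03 without WT replicate 2. The ratio of the median Mrpl level to the median Mrps level lay between 0.803 and 0.897 in WT and between 0.703 and 0.906 in FNcKO, so the groups overlapped.

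Lists of genes from other steps of mitochondrial gene expression held no gene past the test. Of the mitochondrial ribosomal proteins under other names, 6 were tested and none passed the limma test or had an unadjusted p under 0.05. Among them, Chchd1 averaged 24.4 ± 0.22 FPKM in WT against 26.0 ± 1.57 FPKM in FNcKO (SD, n = 3 each). Ict1, a peptidyl-tRNA hydrolase built into the large subunit, averaged 15.1 ± 1.17 FPKM in WT against 17.96 ± 2.40 FPKM in FNcKO. Of 18 tested genes of ribosome assembly and RNA modification, none passed, with 0 higher and 3 lower at an unadjusted p under 0.05. That is 16.7%, against 18.1% of all genes. C1qbp averaged 16.6 ± 3.003 FPKM in WT against 14.2 ± 0.382 FPKM in FNcKO, and Spg7, a protease subunit, 14.2 ± 0.717 FPKM against 14.6 ± 1.33 FPKM (SD, n = 3 each).

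Of 19 translation factors none passed, with 1 higher and 1 lower unadjusted (10.5%, against 18.1% of all genes). Slirp, which stabilises mitochondrial messenger RNA, stood at 9.09, 14.6 and 19.8 FPKM in WT and 11.8, 12.4 and 9.998 FPKM in FNcKO, a wide spread within WT. Of 9 mitochondrial aminoacyl-tRNA synthetases none passed, with 1 higher and 1 lower unadjusted (22.2%, against 18.1% of all genes). Lars2 had by far the highest row among them, at 12060 and 9184 FPKM in WT replicates 1 and 3 and 8380, 7508 and 7355 FPKM in FNcKO (limma adjusted p = 0.259). Its row is uncertain, because its mean of 8898 FPKM lies far above that of Gars, next in the list at 11.75 FPKM. It also lies above the mitochondrial ribosomal RNAs Rnr1 (3732 FPKM) and Rnr2 (3339 FPKM). Which fragments the Lars2 row counts was not tested. Of 9 genes of mitochondrial DNA upkeep, transcription and its regulators none passed, adjusted or unadjusted. Yy1, whose motif was searched above, averaged 10.6 ± 0.178 FPKM in WT against 11.2 ± 0.361 FPKM in FNcKO (SD, n = 3 each).

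The ribosomal RNAs that the proteins bind, Rnr1 and Rnr2, have no value in WT replicate 2. Rnr1, of the small subunit, stood at 3771 and 3215 FPKM in WT and 4463, 3055 and 4157 FPKM in FNcKO (limma adjusted p = 0.77). Rnr2, of the large subunit, stood at 3420 and 3128 FPKM in WT and 3670, 2830 and 3646 FPKM in FNcKO (limma adjusted p = 0.931). The groups overlapped in both. Of all 15 genes encoded by the mitochondrion, none passed and none had an unadjusted p under 0.05.

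Of 15 markers of mitochondrial content none passed, with 2 lower unadjusted (13.3%, against 18.1% of all genes) and a median log2 change of -0.09. The groups did not overlap in 6 of the 15, all lower in FNcKO. That is 40.0%, against 25.6% of all genes (16.3% lower), a difference that was not tested. Hspe1, a chaperonin subunit of the matrix, averaged 115.7 ± 5.20 FPKM in WT against 116.3 ± 1.64 FPKM in FNcKO (SD, n = 3 each). Their summed FPKM ran from 248.9 to 270.7 in WT and from 244.3 to 259.1 in FNcKO. Of 82 nuclear genes of oxidative phosphorylation none passed, with 1 higher and 10 lower unadjusted (13.4%, against 18.1% of all genes). Their median was -0.08, with 63 log2 changes below 0 (76.8%, against 60.3% of all genes), a difference that was not tested. Proteins of the cytosolic ribosome had a lower median, -0.16 over 78 genes, with 77 log2 changes below 0 and 2 past the limma test, Rpl30 (290.0 ± 13.9 FPKM in WT, 170.6 ± 17.9 FPKM in FNcKO, SD, n = 3 each) and Rpl21. At an unadjusted p under 0.05, 25 of these 78 were lower and none higher, against 11.4% and 6.74% of all genes, and 60.3% of all genes had log2 changes below 0. Of the mitochondrial ribosomal protein genes, 5 of 76 were higher and 6 lower. A difference between the 2 families was not tested.

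**Figure D4:**
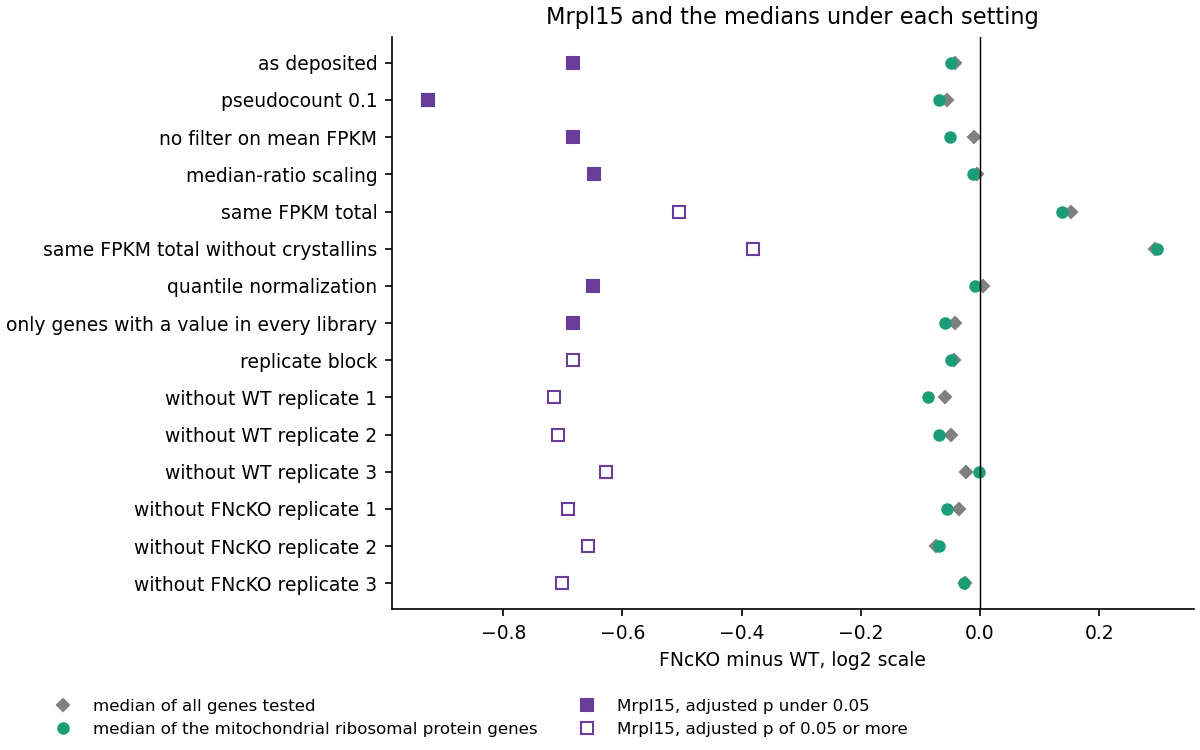
FNcKO minus WT difference on the log2 scale of Mrpl15 (squares, filled where limma's adjusted p is under 0.05), the median of the mitochondrial ribosomal protein genes (circles) and the median of all genes tested (diamonds), for the values as deposited and each alternative. Mrpl15 stays below 0 throughout, between -0.93 and -0.38, and the 2 medians move together.

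The libraries carried the defining genes of the lens: 10 fiber cell markers and 6 epithelial markers were all tested, among them Cryaa and Cd24a. Both lists summed higher in FNcKO with no overlap, but the most abundant rows weigh most in these sums. Cd24a alone stood at 828.2, 837.6 and 848.1 FPKM in WT and 952.3, 1066 and 1004 FPKM in FNcKO. Cryaa alone stood at 37680, 40690 and 39020 FPKM in WT and 44980, 46190 and 44140 FPKM in FNcKO. Of the 6 epithelial markers 4 had log2 changes above 0 and 2 below, and of the 10 fiber markers 7 above and 3 below. The summed FPKM of the 9 fiber markers with a value in every library was 73230 to 78490 in WT and 79700 to 85770 in FNcKO, and that of the epithelial markers was 883.1 to 909.8 in WT and 1002 to 1133 in FNcKO. Epha2, an epithelial marker, rose from 5.74 ± 0.367 to 8.33 ± 0.502 FPKM (SD, n = 3 each, limma adjusted p = 0.0422), and no fiber marker passed the test. Summed markers of pigment cells and of ciliary body and iris also separated by genotype. The summed FPKM of 9 pigment cell markers was 11.6 to 18.9 in WT and 6.74 to 8.49 in FNcKO, with both tested markers below 0. That of 4 ciliary body and iris markers was 21.4 to 30.5 in WT and 51.7 to 69.7 in FNcKO, with 4 of the 5 tested above 0. Optc and Aqp1 weigh most in this sum. Optc averaged 18.2 FPKM in WT and 42.9 FPKM in FNcKO (limma adjusted p = 0.0682). Aqp1 averaged 5.27 and 15.6 FPKM and passed the test (limma adjusted p = 0.0432). Which cells the Aqp1 fragments came from was not tested. The summed FPKM of 11 photoreceptor markers was 30.3 to 84.5 in WT and 42.4 to 45.3 in FNcKO. Of the 11 tested, which are not the same 11, 10 were below 0. The sum leaves out Gnat1, which has no value in WT replicate 2 and passed the test. Gnat1 stood at 18.9 and 22.2 FPKM in WT and 8.84, 9.635 and 9.772 FPKM in FNcKO (limma adjusted p = 0.0215). Muscle, leukocyte, red blood cell and endothelial markers summed to under 2 FPKM each in every library, with Cdh5 listed at 0. Of the 3 cornea markers, Krt12 was listed at 0 and Krt5 was far under the filter, while Aldh3a1 stood at 25.6, 28.2 and 30.7 FPKM in WT and 13.6, 43.3 and 41.4 FPKM in FNcKO, with overlap. The part of these cells and tissues in the values of Mrpl15 and the other members was not tested.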

How the data were processed

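Total RNA of lenses was sequenced in 6 libraries, 3 per genotype, which the labels call biological replicates. The authors deposited FPKM values in 1 table. The submitters' processing notes name Cuffdiff 2.2.1, TopHat2 2.1.0, cutadapt 1.12 and FastQC, and the builds mm10 and GRCm38.p5. The sources used here do not give the annotation, scaling between libraries, strand use or treatment of fragments mapping to several places, so values of the 32 members sharing exonic bases with another gene (8 on the same strand) are uncertain. Rows start at 0-based positions, raised by 1.

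WT replicate 2 has no value in 3578 rows at the end of the table, which hold Mrpl3, Mrps22 and the genes of the mitochondrion. These were fitted on the other 5 libraries. From the deposited FPKM, log2(FPKM + 1) was fitted by limma 3.58.1 (R 4.3.3, trend, two-sided, no covariate) to 10149 genes averaging 1 FPKM or more, adjusted over all of them by Benjamini-Hochberg, threshold 0.05. Log2 changes understate low genes. The fit was tested on simulated data.

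Fragment numbers are not in the table. Low values of single-exon genes best matched whole fragments at depths of 12250000 to 14500000 for WT libraries and 9350000 to 9900000 for FNcKO libraries. At these, 59.5% to 70.2% of 37 to 64 values per library lay within 0.15 of a whole number. By chance 30.0% would at a depth fixed beforehand, but the depth with the highest share was chosen, which raises the share. About double the depth gave 46.3% to 65.9%. Depth is therefore approximate and used in no test, and its difference between genotypes was not tested.

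Named genes were Mrpl15; members past the test; the 12 smallest p; the 6 largest changes each way; the 5 most and 5 least abundant; the Mrps18 genes; and from other lists those past the test and the 2 most abundant, not all printed. Members, lists, roles and tests were chosen with earlier results of these data known. Alternatives were another pseudocount, no filter, 4 scalings, complete rows, a replicate block and each library left out. Assigning subunits by position in the ribosome was added after seeing the data.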

Additional observations from a re-analysis of the deposited data

How the results depend on the processing

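Mrpl15 kept its direction under every alternative run. It passed the limma threshold with a pseudocount of 0.1, without the filter, with median-ratio scaling, with quantile normalization and with complete rows, and missed it with the same FPKM total (log2 change -0.51), the same total without crystallins (-0.38), and any 1 library left out (-0.71 to -0.63). The count of members past the threshold was 2 with median-ratio scaling and quantile normalization (Mrpl15 and Mrps24), 0 with the same total and with the same total without crystallins, and 0 in each fit without 1 library. The count over all genes was 101 without the filter, 93 with the same total, 87 with the same total without crystallins, and 48 to 111 without 1 library, the lowest without WT replicate 1. The share of calls that were higher was 45.3% as deposited, 57.9% with median-ratio scaling, 60.4% with quantile normalization, 72.0% with the same total and 77.0% with the same total without crystallins. The median log2 change of the members was 0.14 with the same total and 0.30 with it taken without crystallins, as that of all genes moved too. It was -0.01 with median-ratio scaling and with quantile normalization, and -0.09 to 0.00 without 1 library. The difference between Mrpl and Mrps medians lay between -0.074 without FNcKO replicate 3 and 0.0332 without WT replicate 2.

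Libraries with the same number in their titles did not deviate together (correlations of -0.03, -0.05 and -0.05 over 9407 genes). The numbers were therefore not used as pairs in the main fit. These correlations cannot show how the samples were collected or prepared. With the replicate block, 14 genes and 0 members passed, and Mrpl15 kept its log2 change of -0.68 (limma adjusted p = 0.119). No library correlated best with its own number.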

Other observations

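The table also lists pseudogenes of the family, chosen here after their values were seen. Mrps36-ps1 stood at 1.32, 3.30 and 2.83 FPKM in WT and 2.37, 3.62 and 3.61 FPKM in FNcKO, and Mrps36-ps2 at 1.31, 3.55 and 2.94 FPKM in WT and 2.25, 3.14 and 2.88 FPKM in FNcKO. The 2 rows run alike from library to library, with WT replicate 1 the lowest in both. Their parent Mrps36 stood at 9.20, 9.25 and 10.5 FPKM in WT and 10.7, 9.58 and 11.3 FPKM in FNcKO, where WT replicate 1 was close to WT replicate 2. Mrps36-ps3 was listed at 0 in every library. Mrpl23-ps1 stood at 5.04, 4.93 and 6.28 FPKM in WT and 7.89, 5.28 and 5.19 FPKM in FNcKO, and its highest library, FNcKO replicate 1, was also the highest of Mrpl23 (29.4 FPKM, against at most 24.1 FPKM in the 5 others).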
